A study of Drosophila melanogaster with 4 samples.

Results

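The small heat shock proteins described here are encoded by 5 of the 17772 genes counted in the libraries: *Hsp22* (Dmel_CG4460), *Hsp23* (Dmel_CG4463), *Hsp26* (Dmel_CG4183), *Hsp27* (Dmel_CG4466) and *Hsp67Bc* (Dmel_CG4190). They were picked by locus tag, with earlier results of these data known, and followed across sex, arsenite exposure and cell class. Brains of *D. melanogaster* of the Canton S (B) strain, a laboratory strain that the study gives as *w1118*, were profiled by single nucleus RNA sequencing. Female and male flies, aged 3 to 5 days at the start, then spent 6 days on plain medium (control) or on food holding 250 µM NaAsO2, the arsenite salt. Each of the 4 groups (female control, female NaAsO2, male control and male NaAsO2) was 1 library from 10 pooled brains, so differences between flies or between libraries of a group could not be measured and no p-value is given.

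Small heat shock proteins are chaperones with an alpha-crystallin domain that hold unfolding proteins without using ATP, so that ATP-driven chaperones can refold them or hand them to degradation. In *D. melanogaster* a group of their genes lies at cytological position 67B, is switched on by the heat shock factor Hsf under heat and other stress, and is also used in development and ageing without stress. The proteins sit in different places: Hsp22 in mitochondria, Hsp27 in the nucleus, and Hsp23 and Hsp26 in the cytosol, while Hsp67Bc is the fly counterpart of mammalian HSPB8 and works with the BAG-domain cochaperone starvin in autophagy. Trivalent arsenic binds protein thiols, and such stress is a classical inducer of these genes in cultured cells.

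All 5 genes lie within 14184 bases of chromosome arm 3L in release 6 of the genome, from base 9371511 to base 9385694. *Hsp67Bc* (3L:9371511-9372497) and *Hsp26* (3L:9376418-9377427) are on the minus strand, and *Hsp22* (3L:9372931-9374964), *Hsp23* (3L:9381882-9382765) and *Hsp27* (3L:9384063-9385694) are on the plus strand. Every annotated transcript of *Hsp23*, *Hsp26*, *Hsp27* and *Hsp67Bc* has 1 exon, so their counts come from exonic RNA, whereas the counts of most genes in nuclei can include introns. *Hsp22* has transcripts of 1 and of 3 exons, and 100% of its 1900 exonic bases are also exonic in *CG4456* (*Hsp67Bb*) on the same strand.

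A count is the number of unique molecular identifiers (UMIs), that is, of transcript molecules captured for a gene. The 4 libraries held 10000 to 25332 nuclei, 33235404 to 53360256 UMIs, and a median of 1374 to 2665.5 UMIs per nucleus, and every nucleus of the male NaAsO2 library had at least 1766 UMIs against 500 in the others. The male-specific RNA *lncRNA:roX1* stood at 16386 CPM in control and 22102 CPM in exposed males, against 93.9 and 115 CPM in females, where CPM is a gene's UMIs per 1000000 UMIs of the library or class. The neuronal gene *elav* stood at 561 to 848 CPM and the glial gene *repo* at 21.1 to 27.8 CPM over the libraries, all labelled brain, and pairs of libraries shared 45 to 135 cell barcodes. Intervals are 95% intervals, exact Poisson for CPM, exact conditional binomial for log2 ratios and exact binomial for shares. All cover counting error only. Those for CPM and log2 ratios take UMIs as independent, and can be too narrow where nuclei held several UMIs of a gene.

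*Hsp22*, the mitochondrial member, had 0 UMIs in all 4 libraries. A count of 0, read as fewer than 3 UMIs, allows up to 0.0562 CPM in the female control, 0.0661 in the female NaAsO2, 0.0903 in the male control and 0.0875 in the male NaAsO2 library. *CG4456*, whose transcripts cover the *Hsp22* exons, had 1 UMI in the female control library and 0 in the others. Cell Ranger counts only reads that it can assign to 1 gene, and the part of the shared exons in these counts was not tested. The sums below are therefore sums over the other 4 genes in effect.

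*Hsp23*, a cytosolic member, had 544 UMIs (10.2 CPM, 95% interval 9.36 to 11.1) in the female control library and 528 UMIs (11.6 CPM, 10.7 to 12.7) in the female NaAsO2 library. In males it had 554 UMIs (16.7 CPM, 15.3 to 18.1) in the control and 117 UMIs (3.41 CPM, 2.82 to 4.09) in the NaAsO2 library. The male control library was thus the highest and the male NaAsO2 library the lowest of the 4, and neither interval overlapped that of any other library. The log2 ratio of NaAsO2 over control was 0.19 (0.02 to 0.37) in females and -2.29 (-2.59 to -1.998) in males, a 4.89-fold lower level in exposed males.

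*Hsp26*, also cytosolic, had 158 UMIs (2.96 CPM) in the female control, 170 UMIs (3.75 CPM) in the female NaAsO2, 172 UMIs (5.18 CPM) in the male control and 70 UMIs (2.04 CPM) in the male NaAsO2 library. Its log2 ratio was 0.34 (0.02 to 0.66) in females and -1.34 (-1.76 to -0.93) in males. *Hsp27*, the nuclear member, had 130 UMIs (2.44 CPM) and 73 UMIs (1.61 CPM) in the female control and NaAsO2 libraries and 131 UMIs (3.94 CPM) and 34 UMIs (0.991 CPM) in the male ones. It was the only member with a lower level after exposure in females too, with a log2 ratio of -0.60 (-1.03 to -0.17) there and of -1.99 (-2.58 to -1.44) in males. *Hsp67Bc*, the autophagy-linked member, had 345 UMIs (6.47 CPM) in the female control, 331 UMIs (7.30 CPM) in the female NaAsO2, 271 UMIs (8.15 CPM) in the male control and 157 UMIs (4.58 CPM) in the male NaAsO2 library. Its log2 ratio was 0.17 (-0.05 to 0.40) in females and -0.83 (-1.13 to -0.54) in males, the smallest male difference of the 4 detected members. For all 4 genes the order was the same in males, with the control library highest and the NaAsO2 library lowest of the 4 libraries. Unlike for *Hsp23*, some intervals overlapped. *Hsp67Bc* had 7.21 to 9.18 CPM in the male control and 6.53 to 8.13 in the female NaAsO2 library. *Hsp26* had 1.59 to 2.58 in the male NaAsO2 and 2.52 to 3.46 in the female control library. *Hsp27* had 0.687 to 1.39 in the male NaAsO2 and 1.26 to 2.02 in the female NaAsO2 library.

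**Figure D1:**
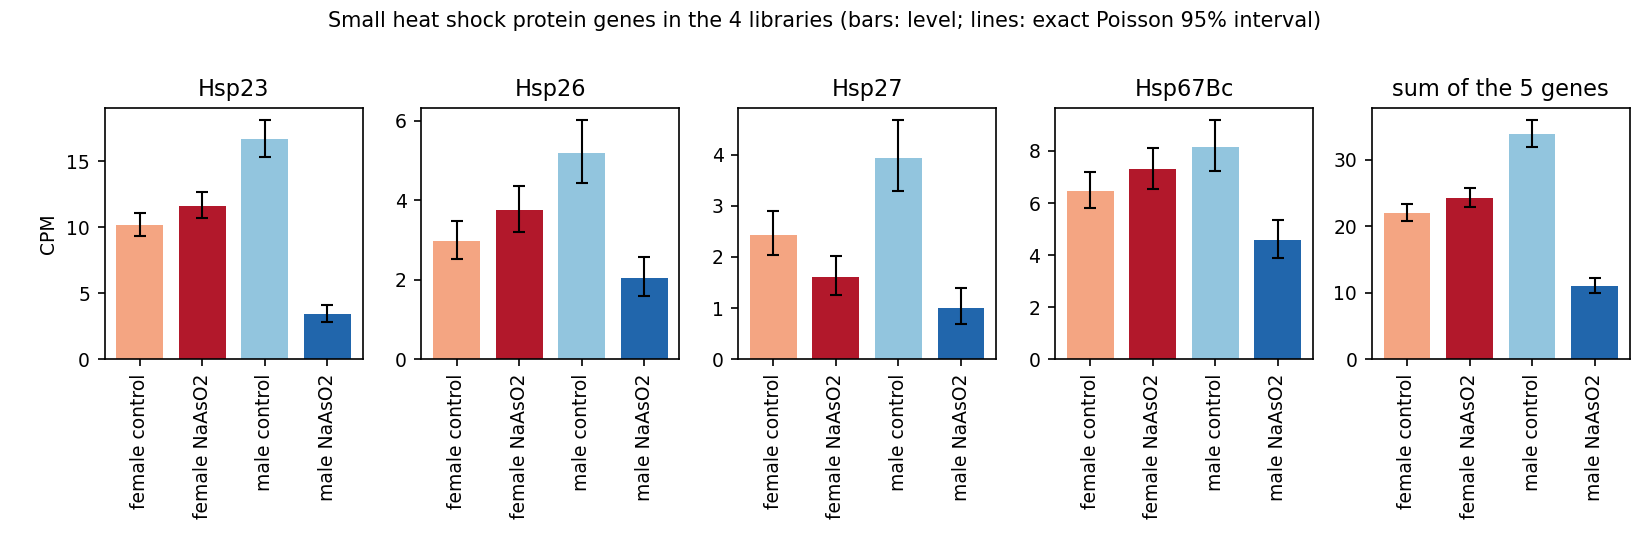
Level of *Hsp23*, *Hsp26*, *Hsp27*, *Hsp67Bc* and the summed UMIs of the 5 genes (vertical axis, CPM, each panel with its own scale from 0) in the 4 libraries, with exact Poisson 95% intervals as lines. In every panel the male control bar is the highest and the male NaAsO2 bar the lowest, from 33.9 to 11.02 CPM for the sum, while the female bars lie between them.

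Summed over the members, 1177 UMIs (22.1 CPM, 20.8 to 23.4) were counted in the female control, 1102 UMIs (24.3 CPM, 22.9 to 25.8) in the female NaAsO2, 1128 UMIs (33.9 CPM, 32.0 to 36.0) in the male control and 378 UMIs (11.02 CPM, 9.94 to 12.2) in the male NaAsO2 library. The sum was 3.08-fold lower in exposed than in control males (log2 ratio -1.62, -1.79 to -1.45), and in females the log2 ratio was 0.14 (0.02 to 0.26). The female value changed sign with the scaling, to -0.50 for mean UMIs per nucleus without scaling and to -0.13 when each nucleus was scaled to the same total, so no direction is read from it. The same scalings turned the female values of *Hsp23* (-0.44 and -0.05) and *Hsp26* (-0.30 and -0.10) below 0, and that of *Hsp67Bc* to -0.46 and -0.0011. *Hsp27* stayed below 0 in females with both (-1.23 and -1.07). In nuclei of at least 1766 UMIs its female levels were closer and their intervals overlapped. They were 2.23 CPM (1.81 to 2.71) in the control and 1.80 CPM (1.33 to 2.39) in the NaAsO2 library. Between the controls the sum was 1.54-fold higher in males than in females (log2 ratio 0.62, 0.50 to 0.74), and between the exposed libraries it was 2.20-fold lower in males (log2 ratio -1.14, -1.31 to -0.97). In whole libraries, fewer nuclei that express a gene and less RNA per nucleus cannot be told apart.

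The sexes differed most for *Hsp23*. The male log2 ratio minus the female one was -2.48 (-2.82 to -2.14) for *Hsp23*, -1.68 (-2.19 to -1.17) for *Hsp26*, -1.39 (-2.08 to -0.71) for *Hsp27* and -1.01 (-1.36 to -0.65) for *Hsp67Bc*. The intervals of these differences come from the counting variance of the log ratios and not from an exact method. The 4 genes therefore made up a different mix in exposed males. *Hsp67Bc* held 24.02% (21.6 to 26.6) of the members' UMIs in the male control and 41.5% (36.5 to 46.7) in the male NaAsO2 library, and *Hsp23* held 49.1% (46.2 to 52.1) and 31.0% (26.3 to 35.9). In females the *Hsp67Bc* share was 29.3% and 30.04%, and the *Hsp23* share 46.2% and 47.9%.

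Among all genes with 200 or more UMIs in the 2 libraries of a sex combined, 6.37% of 7692 were at least 2-fold lower and 0.559% at least 2-fold higher after exposure in males. Of the 3 members that reached 200 UMIs in males, *Hsp23* and *Hsp26* were at least 2-fold lower and *Hsp67Bc* was not, and *Hsp27*, with 165 UMIs, was below the minimum. In females, 0.198% of 8093 genes were at least 2-fold lower and 1.43% at least 2-fold higher, and none of the 4 detected members was past either limit. The median gene had a log2 ratio of 0.08 in females and -0.22 in males. Relative to the median gene the male values were -2.07 for *Hsp23*, -1.13 for *Hsp26*, -1.77 for *Hsp27* and -0.62 for *Hsp67Bc*, and the female values were 0.11, 0.26, -0.68 and 0.09 in the same order of genes.

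The summed level of 84 ribosomal protein genes was 26408 CPM in the female control, 32243 in the female NaAsO2, 36842 in the male control and 23897 CPM in the male NaAsO2 library, the same order of libraries as for the members' sum. Its log2 ratio was 0.29 in females and -0.62 in males. Protein-coding genes with only 1-exon transcripts, the structure of the 4 detected members, had a median log2 ratio of -0.51 in males over 503 genes, against -0.21 over 6905 genes with introns, and 13.3% against 6.02% of them were at least 2-fold lower. In females the medians were 0.14 over 573 genes and 0.08 over 7196 genes. Counted per UMI of the ribosomal protein genes, the members' sum had a log2 ratio of -0.998 in males and -0.15 in females. Per UMI of other 1-exon genes it was -1.08 in males and 0.05 in females. For *Hsp67Bc* alone the male value was -0.21 per ribosomal protein UMI and -0.29 per UMI of other 1-exon genes, and for *Hsp23* it was -1.66 and -1.75. The part of these library measures in the members' differences was not tested beyond these values.

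The male difference was present in every depth group that both male libraries held. In the group of 1000 to 1999 UMIs all male NaAsO2 nuclei had at least 1766, so depth was not matched there. In nuclei of at least 1766 UMIs the summed level was 33.2 CPM in the male control and 11.02 CPM in the male NaAsO2 library. In nuclei with 2000 to 3999 UMIs the summed level was 32.2 CPM (29.3 to 35.3) in the male control and 10.9 CPM (9.37 to 12.5) in the male NaAsO2 library. In nuclei with 8000 or more UMIs it was 42.1 CPM (34.9 to 50.4) against 8.63 CPM (6.27 to 11.6). In females the libraries crossed. At 500 to 999 UMIs the control was higher, with 40.7 CPM (30.7 to 53.0) against 25.8 CPM (21.7 to 30.4). At 8000 or more UMIs it was lower, with 23.5 CPM (19.9 to 27.5) against 48.4 CPM (41.6 to 56.0). Of the 180 member UMIs in these deepest exposed nuclei, single nuclei held 22, 17 and 12, and 21, 13 and 7 of those were *Hsp23*. In the female NaAsO2 library *Hsp23* stood at 14.8 CPM at 500 to 999 UMIs, 8.02 CPM at 2000 to 3999 UMIs and 28.3 CPM at 8000 or more, and the female control had 20.7, 9.18 and 13.4 CPM at these depths. *Hsp27* crossed in females too. At 2000 to 3999 UMIs it had 2.19 CPM in the control and 1.04 CPM in the NaAsO2 library. At 8000 or more it had 1.37 CPM (0.627 to 2.60) and 3.77 CPM (2.06 to 6.32).

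**Figure D2:**
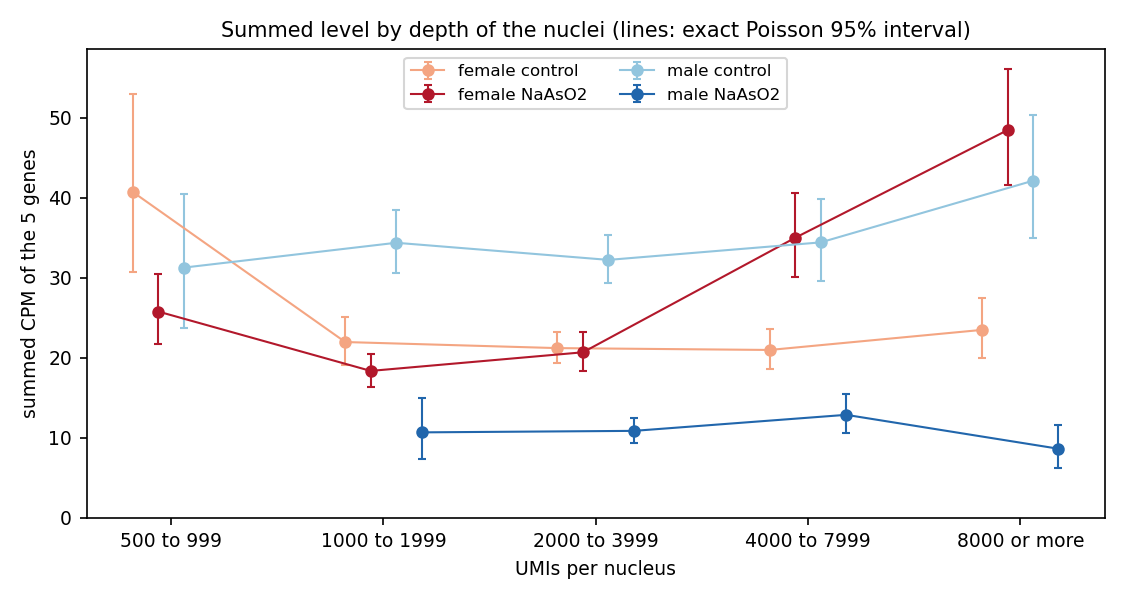
Summed level of the 5 genes (vertical axis, CPM) in nuclei grouped by their UMIs (horizontal axis, UMIs per nucleus) in each library, with exact Poisson 95% intervals as lines. The male NaAsO2 points, from 8.63 to 12.9 CPM, lie below all others, and the female libraries cross, with 48.4 CPM in exposed and 23.5 CPM in control nuclei of 8000 or more UMIs. The male NaAsO2 library had no nuclei below 1766 UMIs, so its point at 1000 to 1999 UMIs covers only 1766 to 1999.

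The members were sparse in the nuclei. At least 1 UMI of any member was found in 5.12% (983 of 19188) of the female control, 3.501% (887 of 25332) of the female NaAsO2, 6.00% (894 of 14895) of the male control and 3.51% (351 of 10000) of the male NaAsO2 nuclei. Depth differed between libraries, so each nucleus was also thinned to 1000 UMIs and those with fewer were left out. The shares were then 2.003% of 17470, 1.75% of 18319, 3.02% of 12478 and 1.16% of 10000 nuclei in the same order of libraries. After thinning, *Hsp23* was found in 0.882%, 0.742%, 1.48% (1.28 to 1.71) and 0.350% (0.244 to 0.486) of the nuclei. No cell type known to lack these genes was at hand, so the part of free RNA in these shares was not tested.

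Most positive nuclei held 1 UMI, from 85.3% of them in the male control to 92.9% in the male NaAsO2 library. Nuclei with 3 or more member UMIs held 11.3% of the members' UMIs in the female control, 15.3% in the female NaAsO2, 15.7% in the male control and 1.06% in the male NaAsO2 library, where 1 such nucleus was found. The highest nucleus had 43 UMIs of members among 1369 in the male control library, 19 of *Hsp23*, 17 of *Hsp26*, 6 of *Hsp27* and 1 of *Hsp67Bc*. In the female control library a nucleus of 1254 UMIs had 29, with 10 of *Hsp23*, 9 of *Hsp26* and 10 of *Hsp27*. These nuclei gave 3.14% and 2.31% of all their UMIs to the members. Some other high nuclei held almost only *Hsp23*, such as 15 UMIs in the female control and 21 in the female NaAsO2 library. Others did not: a female NaAsO2 nucleus of 149961 UMIs had 7 of *Hsp23*, 1 of *Hsp26* and 4 of *Hsp67Bc*. The highest male NaAsO2 nucleus had 4 member UMIs. When each nucleus with a UMI was counted once, the log2 ratio of the sum was -1.39 in males and 0.09 in females.

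Clustering of the nuclei, with the members and the listed chaperone and stress genes left out of its features, gave 101 clusters. By marker genes, 29 of them with 24732 of the 69415 nuclei took the names of 13 cell classes, and 72 clusters with 44683 nuclei (64.4%) kept no class name. The 10 broad neuron markers summed to 24119 to 28574 CPM in the nuclei without a class name and to 15947 to 20949 CPM in the glia-like nuclei. The level in a class is given below as the ratio of its UMIs to those expected at each library's own level, over the 4 libraries, so that 1 is the level of the whole library.

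Among the named classes the summed ratio was highest in monoaminergic neuron-like nuclei, which make dopamine, serotonin or octopamine, with 1.31 (1.03 to 1.63, 78 UMIs). Next came subperineurial glia-like nuclei of the blood-brain barrier with 1.19 (1.03 to 1.37, 189 UMIs). That ratio was above 1 in the 2 female libraries only and rested on few nuclei: without the 3 that held 10 or more member UMIs it was 0.907 (0.758 to 1.08). The intervals of plasmatocyte-like (1.12), fat body cell-like (1.07), astrocyte-like glia-like (0.965) and photoreceptor-like (0.823) nuclei overlapped both and each other. The ratio was 0.811 (0.684 to 0.956) in ensheathing glia-like, 0.775 (0.603 to 0.980) in perineurial glia-like and 0.705 (0.592 to 0.833) in Kenyon cell-like nuclei, the intrinsic cells of the mushroom body. It was lowest in cortex and chiasm glia-like (0.642, 0.529 to 0.772), Mi1 neuron-like (0.534, 0.418 to 0.671) and T1 neuron-like nuclei (0.514, 0.430 to 0.611), which were below 1 in each of the 4 libraries. For *Hsp23* alone the ratio was 1.67 (1.22 to 2.22) in monoaminergic neuron-like and 0.334 (0.238 to 0.457) in T1 neuron-like nuclei. For *Hsp67Bc* it was 0.639 (0.319 to 1.14) in monoaminergic neuron-like, 0.707 (0.526 to 0.929) in T1 neuron-like and 0.446 (0.264 to 0.705) in Mi1 neuron-like nuclei, with intervals that overlapped each other. The other glia-like class had 9 member UMIs in all.

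In males the sum was lower after exposure in all 9 named classes that had at least 20 member UMIs. The log2 ratios were -2.14 to -0.95 with a median of -1.63, and the interval was below 0 in 7 of the classes. All classes are parts of the same male control and male NaAsO2 libraries, so they are not independent comparisons. Kenyon cell-like nuclei had 62 UMIs (35.3 CPM, 27.03 to 45.2) in the male control and 14 UMIs (11.02 CPM, 6.02 to 18.5) in the male NaAsO2 library. In the female control and NaAsO2 libraries these nuclei had 26 UMIs (9.12 CPM, 5.96 to 13.4) and 35 UMIs (14.7 CPM, 10.2 to 20.4), so the level in control males stood apart from both. T1 neuron-like nuclei had 18.8 and 5.72 CPM, ensheathing glia-like nuclei 24.5 and 7.94 CPM, cortex and chiasm glia-like nuclei 16.7 and 5.24 CPM and subperineurial glia-like nuclei 27.4 and 10.0 CPM in the male control and NaAsO2 libraries. The Mi1 neuron-like value, -2.14 from 26 UMIs, moved to -4.34 with finer clusters and to -0.05 with more principal components, and that of subperineurial glia-like nuclei, -1.45, became 0.22 for mean UMIs per nucleus. The ensheathing glia-like value, -1.63, became -2.93 with finer clusters and -0.22 for mean UMIs per nucleus. In monoaminergic neuron-like (-1.04, -2.27 to 0.06) and perineurial glia-like nuclei (-0.95, -2.31 to 0.24) the male interval included 0. In females 7 of 12 classes were higher and 5 lower, and the interval of every class included 0. The value of subperineurial glia-like nuclei in females, 0.03, became 0.75 with finer clusters and 1.17 in deep nuclei. The depth limit left out 1 control nucleus of 1254 UMIs that held 29 of the 72 control member UMIs. It kept exposed nuclei that held 17 and 12 of the 69 exposed ones. Without nuclei of 10 or more member UMIs, the female levels were 19.2 CPM in the control and 22.5 CPM in the NaAsO2 library. Weighted by the control library's class shares, the log2 ratio of the sum was -1.66 in males and 0.11 in females. All clusters without a class name were pooled in these weights, so shifts in the shares of those clusters were not adjusted for.

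**Figure D3:**
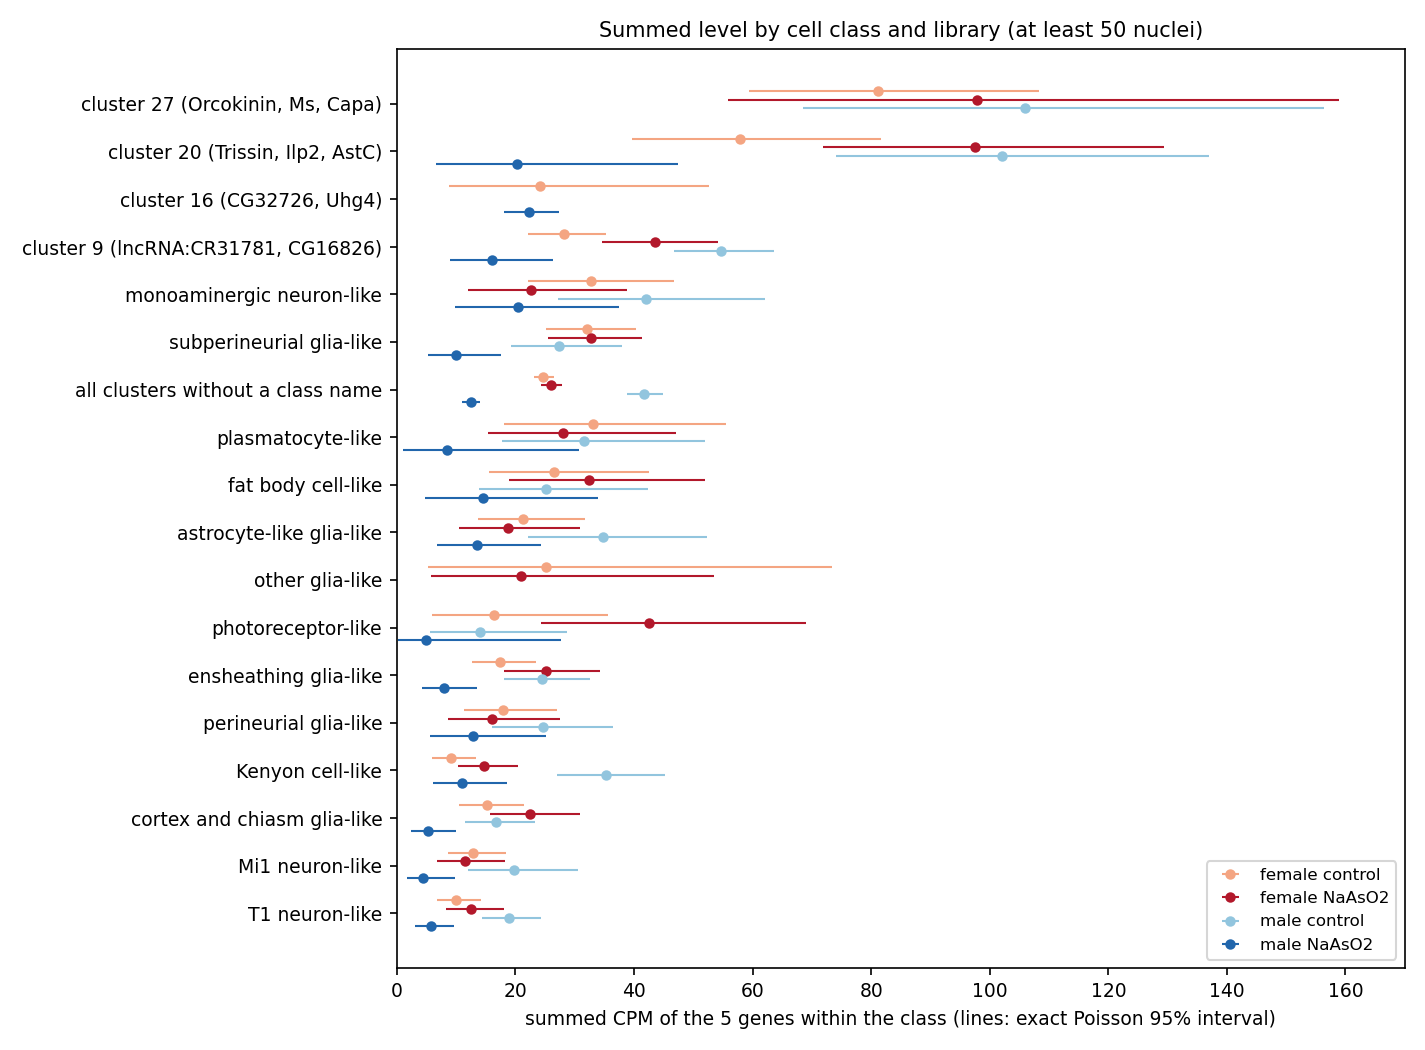
Summed level of the 5 genes (horizontal axis, CPM within the class) in the 13 named classes, in all clusters without a class name and in 4 of those clusters, by library where at least 50 nuclei were present, with exact Poisson 95% intervals as lines and classes ordered by their ratio to the library. Clusters 27 and 20, led by peptide genes, reach 106 and 102 CPM in the male control library, and the male NaAsO2 points lie below the male control points in every named class shown for both.

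The highest levels were in unnamed clusters, which were singled out after their values were seen. Cluster 20 (684 nuclei) was led by the peptide genes *Trissin*, *Ilp2*, *AstC* and *Hug*, and cluster 27 (275 nuclei) by *Orcokinin*, *Ms* and *Capa* with *dimm*, a regulator of peptide-secreting cells, among its leading genes. *Hsp23* was the member that was high there, with 61 UMIs in both clusters together in the female control (54.5 CPM against 9.25 CPM in all other nuclei), 54 in the female NaAsO2 (82.4 against 10.6 CPM), 59 in the male control (88.4 against 15.2 CPM) and 4 in the male NaAsO2 library (12.8 against 3.33 CPM). Over the 4 libraries the *Hsp23* ratio to the library was 5.70 (4.89 to 6.60), and it was above 1 in each library. The ratio was 1.42 (0.776 to 2.38) for *Hsp26*, 1.64 (0.817 to 2.93) for *Hsp27* and 0.847 (0.484 to 1.38) for *Hsp67Bc*, from 11 to 16 UMIs each. The log2 ratio of *Hsp23* after exposure was -2.78 (-4.71 to -1.35) in males and 0.60 (0.04 to 1.15) in females within these clusters. Of the 54 female NaAsO2 UMIs, 21 were in 1 nucleus, and when nuclei with 10 or more member UMIs were left out of every library the female value was 0.30 (42.3 and 52.3 CPM) and the male value -2.50, while the *Hsp23* ratio to the library was 4.54 (3.79 to 5.38). The nuclei outside them had -2.19 in males and 0.20 in females, so the male difference was present without them. Cluster 24 (453 nuclei) also had peptide genes, *Ilp5*, *Ilp2*, *Ilp3* and *ITP*, among its leading genes. Its *Hsp23* ratio to the library was 1.13 from 13 UMIs and its summed ratio was 0.965, and both intervals included 1. A high *Hsp23* level was thus not shared by all clusters with peptide genes among their leading genes.

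Cluster 9 (2012 nuclei), led by *lncRNA:CR31781* and *CG16826*, was the only cluster of these in which the intervals of *Hsp26* and *Hsp27* both lay above 1, with ratios to the library of 2.09 (1.62 to 2.64) for *Hsp26*, 1.82 (1.31 to 2.47) for *Hsp27* and 1.68 (1.44 to 1.95) for *Hsp23*. The *Hsp27* UMIs came mostly from 1 library, with 3 in the female control and 5 in the female NaAsO2 library. In the male control library the cluster had 91 UMIs of *Hsp23* and 33 of *Hsp27*. In the male NaAsO2 library it had 1 UMI of *Hsp23* and 0 of *Hsp27*, the latter allowing up to 3.20 CPM against 10.7 CPM in the male control. *Hsp26* had 25 and 6 UMIs there (log2 ratio -0.35, -1.92 to 0.97) and *Hsp67Bc* 19 and 8 UMIs (0.46, -0.94 to 1.72), so only the first pair of genes had intervals below 0. The sum within the cluster had a log2 ratio of -1.77 (-2.64 to -1.01) in males and 0.63 (0.16 to 1.11) in females. Its share of all UMIs was 9.24% in the male control and 2.74% in the male NaAsO2 library.

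Cluster 16 held 1064 nuclei of the male NaAsO2 library and 259 of the others, and its leading genes included *CG32726*, *Uhg4* and *MsrA*. It carried 93 of the 378 member UMIs of that library (24.6%) with 12.2% of its UMIs, at 22.3 CPM (17.99 to 27.3), and 42 of the 157 *Hsp67Bc* UMIs were in it. Without this cluster the log2 ratio of the sum in males was -1.84, and in females it was 0.14. With 2 and 6 member UMIs in the male and female control libraries and 0 in the female NaAsO2 library, no comparison within the cluster was made.

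The other genes of the alpha-crystallin family were counted for comparison. Of 7 such genes, 3 reached 200 UMIs in females and 2 in males, with medians of 0.08 and -0.96 on the log2 scale. In males, where 6.37% of all genes were at least 2-fold lower, 1 of the 2 was. That gene was *Hsp67Ba*, which lies in the same 67B group, with 17.6 and 17.6 CPM in the female libraries (log2 ratio -0.0018) and 28.6 and 8.11 CPM in the male control and NaAsO2 libraries (-1.82, -2.02 to -1.63). *CG14207*, which lies outside 67B, had log2 ratios of 0.08 in females and -0.09 in males, and *l(2)efl*, also outside it, had 0.33 (-0.04 to 0.69) in females. The male interval of *Hsp67Ba* overlapped those of *Hsp23*, *Hsp26* and *Hsp27*, and rested on more UMIs (952 and 278).

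Of 12 heat shock response genes, 6 reached 200 UMIs in females and 5 in males. Of these, 0 and 1 were at least 2-fold lower, and none was at least 2-fold higher in either sex. Over all genes at that minimum, 0.198% in females and 6.37% in males were at least 2-fold lower. The shares at least 2-fold higher were 1.43% and 0.559%, so a count of 0 among so few listed genes says little. The lower gene was *Hsp83*, the fly Hsp90, with 370 and 248 CPM in the female control and NaAsO2 libraries (log2 ratio -0.58) and 501 and 112 CPM in the male ones (-2.16, -2.21 to -2.11). *DnaJ-1*, the stress-inducible Hsp40, had -0.59 in females and -0.54 in males, and *stv*, the partner of Hsp67Bc, had -0.09 and -0.34. *Hsf* had 0.05 and -0.25, *Hsp68* had -0.07 in females, and the heat-inducible noncoding RNA *lncRNA:Hsromega* had 0.11 and 0.06. The near-identical *Hsp70* copies stayed below 200 UMIs each, and reads could be split between them.

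Of the 11 names listed as constitutive chaperones, HspB8 gave no further gene, and of the other 10, 8 reached 200 UMIs in each sex. In males 7 of the 8 were below the median gene and 1, *Stip1* (Hop), was at least 2-fold lower (-1.22), while the 8 had a median of -0.74. In females 6 of the 8 were below the median gene and none was 2-fold lower, with *Stip1* at -0.89. Over all genes with 200 or more UMIs, 6.37% in males and 0.198% in females were at least 2-fold lower. Mitochondrial *Hsc70-5* and *Hsp60A* had -0.86 and -0.75 in males, the endoplasmic reticulum chaperone *Hsc70-3* had -0.74, *Droj2* had -0.82, *Hsc70-4* had -0.55, *Hsp110* (Hsc70Cb) had -0.38 and *STUB1* (CHIP) had -0.13. Of 12 metal and oxidative stress genes, 9 reached 200 UMIs in each sex, with medians of 0.22 in females and 0.13 in males, and 1, *Sod1*, was at least 2-fold lower in males (-1.05). *MtnA*, a metallothionein, had 0.79 in females and 0.19 in males, and *MtnE* had 0.22 and 0.93. *Cat* had 0.46 and 0.13, *Keap1* had -0.08 and 0.31, *cnc* had 0.02 and -0.20 and *puc* had -0.01 and 0.32. *GstD1* had 0.25 and -0.49, and *ref(2)P*, the fly p62, had 0.28 and -0.51.

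**Figure D4:**
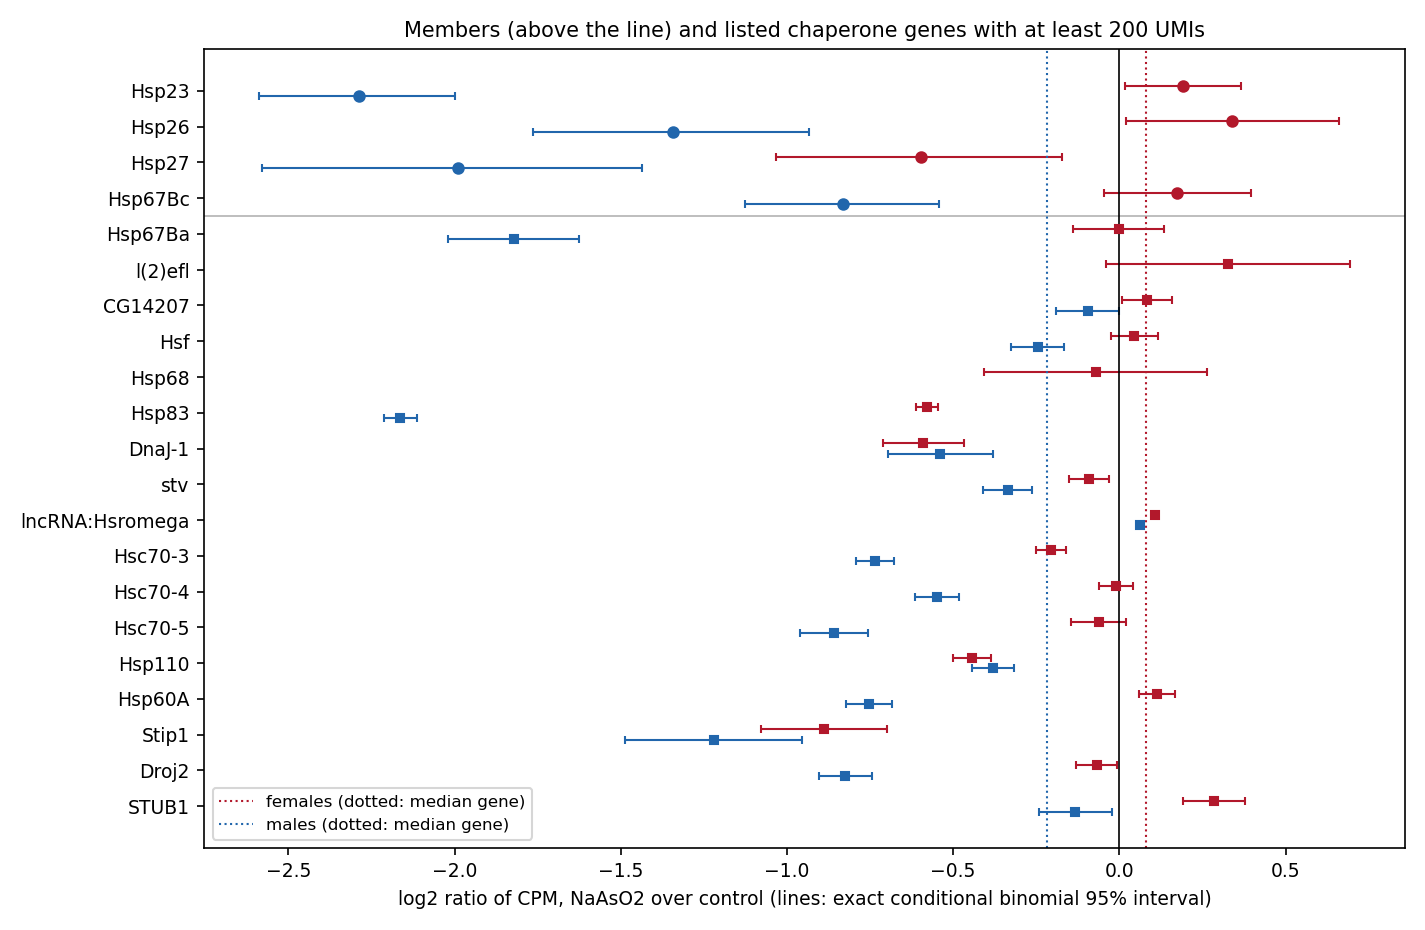
Log2 ratio of CPM after NaAsO2 over control (horizontal axis) in females (red) and males (blue) for the 4 detected members, above the grey line, and for the listed chaperone genes with at least 200 UMIs in the sex, with exact conditional binomial 95% intervals as lines and the median gene of each sex dotted. The male points of *Hsp23* (-2.29), *Hsp27* (-1.99), *Hsp67Ba* (-1.82) and *Hsp83* (-2.16) lie farthest to the left, and the median gene is at 0.08 in females and -0.22 in males.

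Over the 46 pairs of a named class and a library with at least 100 nuclei, the genes whose CPM ranked most like *Hsp23* were *NUCB1* (Spearman's rho 0.78), *MFS3* (0.78), *Calr* (0.76), *Ufc1* (0.74) and *VhaAC45* (0.74). For *Hsp26* they were *Bet1* (0.68), *mRpS23* (0.63), *mgr* (0.62), *Spase12* (0.61) and *CG17660* (0.60). The highest values were lower for *Hsp27* (*Txl* with 0.56, *CG5355* with 0.56, *MED11* with 0.55, *wol* with 0.55 and *CG3226* with 0.53) and for *Hsp67Bc* (*t* with 0.59, *Rh2* with 0.54, *CG3436* with 0.54, *CG10470* with 0.53 and *dnd* with 0.53), whose counts per class were small. Among the members themselves rho was 0.43 for *Hsp23* with *Hsp26*, 0.40 for *Hsp23* with *Hsp27*, 0.42 for *Hsp27* with *Hsp67Bc* and -0.09 for *Hsp26* with *Hsp27*. The points share libraries and depth, so these values describe the ranking only.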

How the data were processed

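Nuclei of 10 pooled frozen brains per library were profiled with 10x Genomics chemistry. The deposited values are counts, made by the authors: UMIs per gene and nucleus from Cell Ranger (version 3.1 in the submitters' processing notes, although the matrix headers name a later version), on release 6 of the genome, in filtered matrices of 17772 genes. No other filter on nuclei was applied, and doublets were kept except in the alternative with Scrublet, which removed 2945, 5134, 1775 and 800 nuclei of the female control, female NaAsO2, male control and male NaAsO2 libraries. By locus tag, 17705 genes matched the RefSeq gene table of release 6 and 67 did not, and positions and exons were read from the Ensembl annotation of that release.

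UMIs were summed per library or class and divided by all UMIs of the same nuclei (CPM). With 1 library per group, no test was made, and the study's test over nuclei (MAST) was not used. A gene counted as changed at 2-fold with 200 or more UMIs in the 2 libraries of a sex together, and members of the listed gene groups were named at that minimum. The members and lists were chosen with earlier results of these data known. Alternatives were other scalings, deep nuclei only, doublets removed, control class shares, totals without mitochondrial, rRNA and *lncRNA:Hsromega* UMIs, Louvain resolution 2, 30 principal components and a minimum of 50 UMIs. After the data were seen, counts without cluster 16 or without clusters 20 and 27, nuclei counted once, counts without nuclei of 10 or more member UMIs, and totals of ribosomal protein or 1-exon genes were added.

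Nuclei were clustered by the Louvain method on Pearson residuals computed within each library, and large clusters were clustered again. A cluster took a class name ("X-like") when at least 3 of the class's markers were among its 30 leading genes, 1 or more of them among the top 10 and no fewer than for any other class, and at least 60% of the list was 2-fold higher there, thresholds set after the clusters were seen. No cluster took a name for neurons in general. Listed names were matched to current symbols (Hop to *Stip1*, CHIP to *STUB1*, Hsc70Cb to *Hsp110*, Hsp67Bb to *CG4456*). Python 3.11.15 was used with NumPy 2.4.6, SciPy 1.17.1, pandas 2.3.3, scikit-learn 1.9.0, python-igraph 0.11.9, scanpy 1.11.5 and matplotlib 3.10.9, and the scripts for ratios and intervals were checked on simulated counts. The precision is set by the UMIs behind each value, from 34 to 554 per detected member and library.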

Additional observations from a re-analysis of the deposited data

Results flagged for a closer look

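Of the 4 detected members, 3 and the sum had whole-library ratios of opposite sign in the sexes. The median gene did too, with a log2 ratio of 0.08 in females and -0.22 in males. The share of all genes with opposite signs was not counted. Whether the sexes differ beyond the spread between libraries was not tested, since each group is 1 library. The log2 ratio of NaAsO2 over control was 0.19 in females and -2.29 in males for *Hsp23*, 0.34 and -1.34 for *Hsp26*, and 0.17 and -0.83 for *Hsp67Bc*. For the sum it was 0.14 in females and -1.62 in males. The female values of all 3 genes and of the sum do not keep their sign under every scaling.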

How the results depend on the processing

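The sum in males was below 0 under all 13 alternatives, from -1.84 to -0.998. It was -1.41 centred on the median gene, -1.002 as mean UMIs per nucleus, -1.84 without cluster 16, -1.39 with each nucleus counted once, -0.998 per ribosomal protein UMI and -1.08 per UMI of other 1-exon genes. The sum in females was 0.36 in deep nuclei and fell below 0 as mean UMIs per nucleus (-0.50), with nuclei scaled to equal totals (-0.13) and per ribosomal protein UMI (-0.15). *Hsp23* in females was -0.44, -0.045 and -0.10 under the same 3 settings, *Hsp67Bc* was -0.46, -0.0011 and -0.11, and *Hsp26* was -0.30 and -0.10 under the first 2. Single members in males were below 0 in 52 of 52 values, and sums within classes in males in 42 of 44, the others being 0.22 for subperineurial and 0.24 for perineurial glia-like nuclei as mean UMIs per nucleus. With a minimum of 50 UMIs, 257 genes (2.63%) were at least 2-fold higher and 39 (0.399%) lower in females, and 106 (1.13%) were higher and 721 (7.66%) lower in males. The cause of these shifts was not tested. No paired analysis was possible because each group has 1 library. With 1 library per group, an effect of exposure and a difference between 2 library preparations cannot be told apart, and the 34 to 554 UMIs per detected member limit what classes can show.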

Other observations

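Some listed genes below the minimum of 200 UMIs were singled out after their values were seen. *CG7409*, a gene of the alpha-crystallin family, had 53 and 79 UMIs in the female control and NaAsO2 libraries (log2 ratio 0.81, 0.29 to 1.34) and 26 and 63 UMIs in the male ones (1.23, 0.55 to 1.95), so it was higher after exposure in both sexes, unlike the members. *MtnD*, a metallothionein gene, had 5 and 13 UMIs in females (1.61, 0.03 to 3.45) and 2 and 40 UMIs in males (4.28, 2.33 to 7.37). *Hsp68*, an inducible Hsp70 family gene, had 119 and 79 UMIs in males (-0.64, -1.07 to -0.21).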
